A study of Mus musculus with 15 samples.

Results

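The subject is a set of 34 mouse genes that interferon switches on and that act against viruses, followed in the resting heart of 3 kinds of mice. The members were chosen by gene symbol, with earlier results of these data known. All probe sets (groups of short array probes that together report 1 transcript) annotated to a member were collected, and the one with the highest mean signal stood for its gene. Of the 34 members, 32 had at least 1 such probe set, out of 18190 genes on the array. Isg15 and Ifi44 were not analysed here. A further 5 members (Dhx58, Zbp1, Mx1, Mx2 and Cxcl10) lay below the filter on dim genes, so 27 of the 13107 tested genes were members.

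The hearts came from male C57Bl/6 mice (C57BL/6J), male C3H mice (C3H/HeJ) and males of their first-generation cross B6C3F1 (B6C3F1/J), with 5 mice and 5 arrays per kind. Every mouse, in all 3 groups, had undergone surgery at 7 weeks, under tribromoethanol anaesthesia, to place a radiotelemetry transmitter in the abdomen, had no further treatment and was killed with CO2 at 9 to 10 weeks. C3H/HeJ is known for an inherited defect of the endotoxin receptor Tlr4. RNA of the heart apex (50 ng per mouse) went through a labelling reaction with 2 rounds of amplification and was read on Affymetrix arrays.

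Interferons are secreted proteins that warn cells of a virus. Type I interferon binds its receptor (Ifnar1 and Ifnar2), the kinases Jak1 and Tyk2 activate Stat2, and Stat2 works with Irf9 in a complex that binds the interferon-stimulated response element, ISRE, in promoters. Interferon gamma has a receptor of its own and acts through another promoter element, GAS. The induced genes include sensors of viral nucleic acid, proteins that block viral replication or release, feedback regulators and chemokines that attract lymphocytes. Many of them are also transcribed at a basal rate in tissue that is not infected.

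Promoter sequence was read from RefSeq (build GRCm38.p6) as 300 bases per transcript start, of which 250 lie upstream. An ISRE match was defined as 2 GAAA repeats with any 2 bases between them, on either strand, and a GAS match as TTCNNNGAA, which is its own reverse complement. Of the 34 members, 26 had a promoter in that table. An ISRE match was present in 14 of these 26, against 3.99% of all 27025 genes and 3.44% of all 32851 promoters. A GAS match was present in 10 of 26, against 9.55% of all genes and 8.3% of all promoters. Among the members tested, the ISRE match was found in 5 of the 8 that passed the test between C3H and C57Bl/6 and in 7 of 15 that did not. The GAS match was found in 3 of the 8 and in 7 of the 15. A match describes letters only, not a bound site.

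The windows below are of members with a strain difference described next and a match in the bases shown. Ifit1 was added as an ISRE gene whose level did not pass. Not shown are Cxcl9, which had no match of either kind, and Ifi35, whose only match, a GAS, lay past the transcript start. Each runs 5′ to 3′ over the 170 bases before the transcript start on the gene's own strand, with the matches in capitals (ISRE for all but Irf1, which has a GAS match). The Rsad2 window (chr12:26456453-26456622, minus strand) holds its match 110 bases before the start.
Rsad2: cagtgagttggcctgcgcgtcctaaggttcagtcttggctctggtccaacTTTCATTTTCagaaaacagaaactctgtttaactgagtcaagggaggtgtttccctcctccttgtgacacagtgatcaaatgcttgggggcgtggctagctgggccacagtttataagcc
The Bst2 window (chr8:71537473-71537642, minus strand) holds 2 overlapping ISRE matches, which a GAS match also overlaps.
Bst2: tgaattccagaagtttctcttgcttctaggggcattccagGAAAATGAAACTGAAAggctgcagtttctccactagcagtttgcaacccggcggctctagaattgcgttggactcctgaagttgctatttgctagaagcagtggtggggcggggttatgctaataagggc
The windows of Ifit3 (chr19:34583359-34583528, plus strand) and Ifit1 (chr19:34640719-34640888, plus strand) hold 2 ISRE matches each.
Ifit3: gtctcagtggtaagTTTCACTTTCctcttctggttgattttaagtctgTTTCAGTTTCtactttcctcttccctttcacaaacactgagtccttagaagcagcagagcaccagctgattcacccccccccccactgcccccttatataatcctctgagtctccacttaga
Ifit1: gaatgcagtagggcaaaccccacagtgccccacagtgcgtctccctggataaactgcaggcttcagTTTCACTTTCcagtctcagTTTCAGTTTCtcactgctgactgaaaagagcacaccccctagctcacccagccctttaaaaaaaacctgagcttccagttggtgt
The windows of Trim30a (chr7:104465194-104465363, minus strand) and Trim30d (chr7:104507850-104508019, minus strand) share an unbroken run of 118 bases, which includes the ISRE match of each.
Trim30a: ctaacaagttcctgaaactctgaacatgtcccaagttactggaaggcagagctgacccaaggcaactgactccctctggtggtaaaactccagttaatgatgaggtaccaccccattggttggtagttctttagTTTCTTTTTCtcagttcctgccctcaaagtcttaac
Trim30d: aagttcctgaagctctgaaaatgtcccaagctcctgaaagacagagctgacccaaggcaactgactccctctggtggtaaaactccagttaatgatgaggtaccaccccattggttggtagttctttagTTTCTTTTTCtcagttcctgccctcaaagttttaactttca
The Irf1 window (chr11:53769844-53770013, plus strand) has no ISRE match and holds its GAS match 81 bases before the start.
Irf1: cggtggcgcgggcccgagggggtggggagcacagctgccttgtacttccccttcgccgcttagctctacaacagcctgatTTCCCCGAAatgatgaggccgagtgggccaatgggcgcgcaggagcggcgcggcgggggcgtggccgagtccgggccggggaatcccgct

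Cxcl9, Trim30d, Bst2, Trim30a, Rsad2, Ifit3 and Irf1 had lower levels in C3H than in C57Bl/6 hearts, and Ifi35 had a higher one. These 8 of 27 members (29.6%) stand beside 15.7% of all genes tested in this comparison (8.4% lower and 7.26% higher). The difference C3H minus C57Bl/6 was below 0 for 22 of the 27 members (81.5%), against 52.6% of all genes tested. Its median was -0.29 over the members and -0.02 over all genes. Because the members were chosen with earlier results of these data known, these shares describe the list and are no test of it. Between B6C3F1 and C57Bl/6, 0 of 27 members passed, against 3.83% of all genes tested. The unadjusted limma p was under 0.05 for 6 members, and the share of all genes at that looser threshold is not given here. Cxcl9 and Trim30a were higher in B6C3F1 than in C3H, 2 of 27 members against 6.2% of all genes tested (3.59% higher).

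Here a level is log2(signal + 16), and a difference is between strain means on that scale, which understates the change of dim genes. A member passed at a limma adjusted p under 0.05, adjusted over all 13107 genes. All strains were in 1 fit. In whole tissue, fewer cells of a type and less RNA per cell cannot be told apart.

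The arrays were checked against heart markers first. All 7 cardiomyocyte markers (such as Myh6 and Tnnt2) were above the dim filter and 0 of 7 passed between C3H and C57Bl/6. Poly-A control RNA, which is added during labelling, had a mean log2 signal of 9.34 ± 0.65 (SD, n = 5) in C3H, 8.69 ± 0.60 in C57Bl/6 and 8.70 ± 0.15 in B6C3F1. C3H replicate 4 was highest at 10.48. The Gapdh 3 prime over 5 prime log2 ratio, a sign of RNA integrity, was 0.60 ± 0.26, 0.85 ± 0.24 and 0.90 ± 0.21 in the same order. Sample numbers run in 1 block per strain, and the labels name no batch or handling order. A batch or order that followed these numbers could not be told apart from strain. When every array was centred on its own median, the median of all genes between C3H and C57Bl/6 went from -0.02 to 0.08. The member median went from -0.29 to -0.18, which in both cases was -0.27 relative to that of all genes, and 20 members rather than 22 were below 0.

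**Figure D1:**
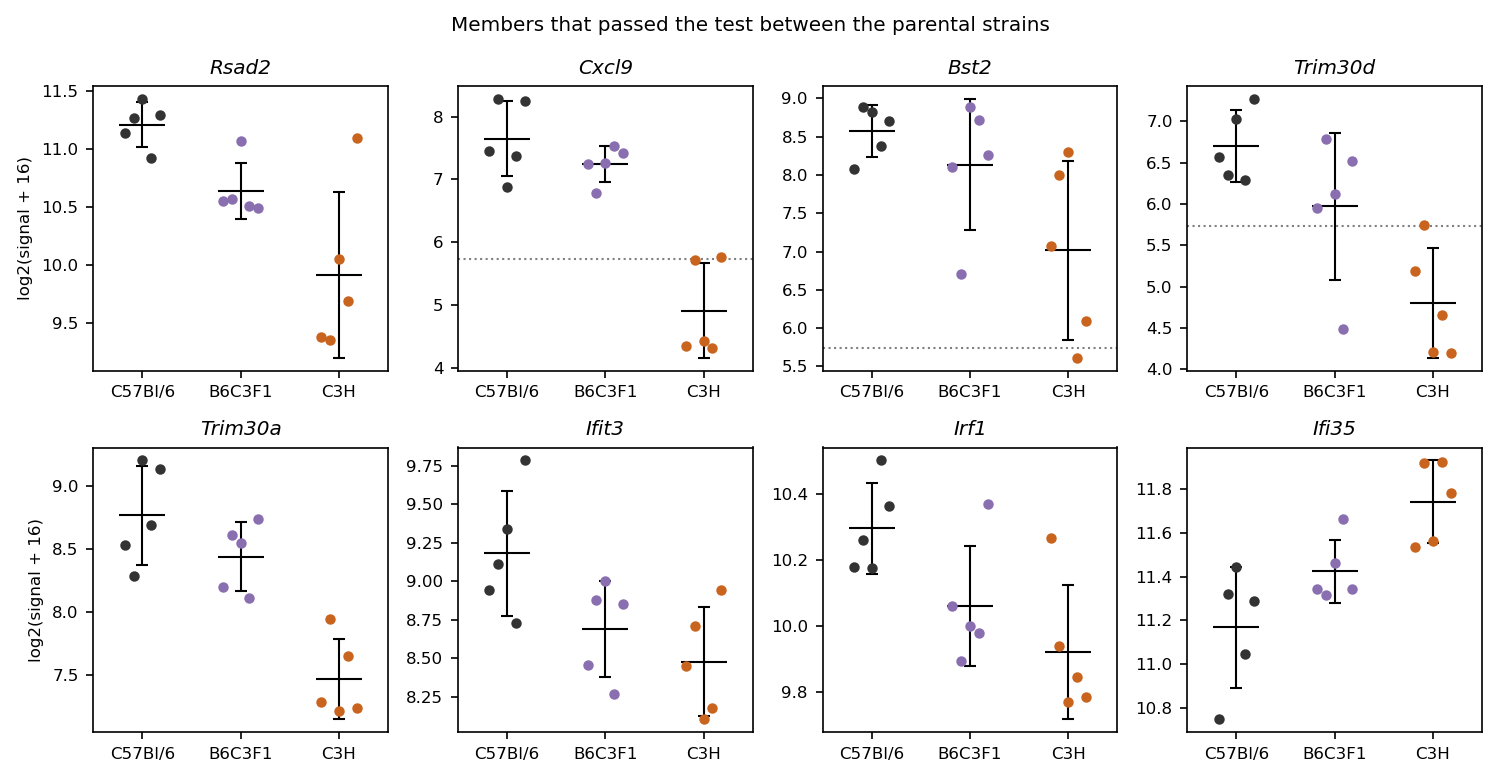
Levels (log2(signal + 16), vertical axis, different range in each panel) of the 8 members that passed between C3H and C57Bl/6, with 1 point per mouse, the strain mean as a line and the SD as bars (n = 5). The dotted line marks the dim filter at 5.74. C3H points lie below all C57Bl/6 points for Cxcl9, Trim30a and Trim30d and above them for Ifi35, and overlap them in the other 4 panels.

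Among the transcription factors of the response, 1 of 5 passed between the inbred strains. Irf1, an interferon gamma-induced activator, read 10.18, 10.26, 10.18, 10.50 and 10.36 in C57Bl/6 replicates 1 to 5, and 10.27, 9.94, 9.77, 9.85 and 9.79 in C3H. B6C3F1 replicates read 10.06, 9.89, 10.00, 9.98 and 10.37. C3H replicate 1 lay among the C57Bl/6 arrays and the other C3H arrays below them, so the strains overlapped. C3H was lower by a log2 difference of -0.38 ± 0.12 (SE), or 1.3-fold (limma adjusted p = 0.0317). This call was lost under centring (-0.27, adjusted p = 0.20), and, at differences of -0.32 to -0.38, with the poly-A signal as a covariate (-0.38, adjusted p = 0.0848) and without any 1 of C3H replicates 2, 3, 4 and 5 (0.052, 0.084, 0.0694 and 0.0682) or of C57Bl/6 replicates 4 and 5 (0.0915 and 0.0682).

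Stat2, a subunit of the ISRE-binding complex, had means of 6.74 ± 0.38 (SD, n = 5) in C57Bl/6, 6.52 ± 0.36 in B6C3F1 and 5.98 ± 0.74 in C3H. Its C3H minus C57Bl/6 difference of -0.77 ± 0.33 (SE) did not pass (limma adjusted p = 0.128), and its other probe set gave 0.09. Irf9, the DNA-binding subunit of that complex, averaged 8.07 in C57Bl/6, 8.12 in C3H and 8.30 in B6C3F1. Irf7, which amplifies interferon transcription, averaged 8.16, 8.03 and 7.81 in the same order. Irf8, a factor of myeloid and dendritic cells, averaged 8.25, 8.34 and 8.36. None of these 4 passed in any of the comparisons.

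Neither tested sensor of viral RNA passed. Ddx58, which encodes RIG-I, averaged 8.75 ± 0.34 (SD, n = 5) in C57Bl/6, 8.73 ± 0.10 in B6C3F1 and 8.49 ± 0.21 in C3H. Its difference between the inbred strains was -0.26 ± 0.15 (SE, limma adjusted p = 0.29), and it passed only with the Gapdh ratio as a covariate (-0.43, adjusted p = 0.0443). Ifih1, which encodes MDA5, averaged 9.28, 9.05 and 8.98 in C57Bl/6, B6C3F1 and C3H, with a C3H minus C57Bl/6 difference of -0.30 ± 0.15 (adjusted p = 0.215). Dhx58, which encodes the regulator LGP2, and Zbp1, a sensor of Z-form nucleic acid, lay below the dim filter over all arrays, with strain means from 5.28 to 5.60 for Dhx58 and from 5.24 to 6.05 for Zbp1, whose highest mean, in C57Bl/6, was above the filter level.

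The Ifit proteins bind viral RNA and hold back its translation, and 1 of 3 passed. Ifit3 read 8.94, 9.11, 9.34, 8.73 and 9.79 in C57Bl/6 replicates 1 to 5 and 8.45, 8.71, 8.10, 8.18 and 8.95 in C3H. In B6C3F1 it read 8.46, 8.88, 9.00, 8.27 and 8.85. C3H replicate 5 lay above C57Bl/6 replicates 1 and 4, and the strains overlapped. C3H was lower, with a difference of -0.71 ± 0.20 (SE), or 1.63-fold (limma adjusted p = 0.0202). The call was lost under centring (adjusted p = 0.0726), with the poly-A covariate (-0.44, 0.188) and without C3H replicate 3 or 4 (0.0629 and 0.0589) or C57Bl/6 replicate 3 or 5 (0.0533 and 0.0659).

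Ifit1 and Ifit2 did not pass in any comparison. Ifit1 read 7.41, 9.13, 8.62, 8.13 and 8.72 in C57Bl/6, and 7.60, 8.64, 8.18, 8.26 and 8.88 in C3H. The spread among mice of a strain was wide: C57Bl/6 replicate 1 was lowest of its strain, and so was C3H replicate 1. The difference was -0.09 ± 0.27 (SE, limma adjusted p = 0.869). Ifit2 averaged 9.16 in C57Bl/6, 8.95 in B6C3F1 and 8.87 in C3H, with a difference between the inbred strains of -0.29 ± 0.17 (adjusted p = 0.287).

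None of the 4 oligoadenylate synthetase genes passed. The synthetases among them make the short adenylate chains that activate RNase L. Oas2 came closest, in B6C3F1 against C57Bl/6: it read 7.96, 8.41, 8.67, 8.29 and 8.49 in C57Bl/6 replicates 1 to 5, and 7.73, 8.06, 7.77, 7.41 and 7.35 in B6C3F1. Only B6C3F1 replicate 2 lay above the lowest C57Bl/6 array. The difference was -0.70 ± 0.20 (SE, limma adjusted p = 0.0507), and C3H averaged 7.98 ± 0.40 (SD, n = 5) between them. It passed without B6C3F1 replicate 2 (adjusted p = 0.0455), C3H replicate 1 (0.0383), C3H replicate 4 (0.0251) or C57Bl/6 replicate 1 (0.0418). It also passed with only those strains fitted (0.0306), the Gapdh (0.037) or poly-A covariate (0.0486), the filter at the 60th percentile (0.0427), quantile normalization (0.0491) or a pseudocount of 64 (0.0495). Oas1a averaged 8.80 in C57Bl/6, 8.77 in B6C3F1 and 8.48 in C3H, with a C3H minus C57Bl/6 difference of -0.32 ± 0.25 (SE, adjusted p = 0.448) that became -0.62 (adjusted p = 0.0242) without C57Bl/6 replicate 1. Oasl2 differed by -0.49 ± 0.24 (adjusted p = 0.178) between the inbred strains, and by -0.69 (adjusted p = 0.0394) without C3H replicate 2. Oasl1 differed by 0.19 ± 0.24 (adjusted p = 0.658).

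Mx1 and Mx2 encode GTPases that trap viral particles or polymerases, and most inbred laboratory strains are known to carry a defective Mx1. Over all arrays both lay below the dim filter, with strain means from 5.25 to 5.50 for Mx1 and from 4.90 to 5.74 for Mx2. The highest Mx2 mean, in B6C3F1, was at the filter level, and its arrays read 6.10, 6.65, 4.76, 6.42 and 4.80.

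Of 6 other antiviral effectors, Rsad2 and Bst2 passed between the inbred strains. Rsad2 encodes viperin, an enzyme that makes a nucleotide analog which stops viral polymerases. It read 11.14, 11.27, 11.43, 10.92 and 11.29 in C57Bl/6 replicates 1 to 5, and 9.38, 9.36, 10.05, 9.69 and 11.09 in C3H. B6C3F1 read 10.55, 10.57, 11.07, 10.51 and 10.49. C3H replicate 5 reached the C57Bl/6 range and the other 4 C3H arrays lay below every C57Bl/6 and B6C3F1 array, while 4 of the 5 B6C3F1 arrays fell in between. C3H was lower, with a difference of -1.29 ± 0.24 (SE), or 2.45-fold (limma adjusted p = 0.000562).

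The other Rsad2 probe sets gave -1.44 (limma adjusted p = 0.00019 over all probe sets) and -1.03 (0.0152). B6C3F1 was above C3H by 0.72 ± 0.24 (SE), which did not pass (adjusted p = 0.0769), and below C57Bl/6, at -0.57 ± 0.24 (adjusted p = 0.174). The second probe set passed between B6C3F1 and C3H (0.98, adjusted p = 0.0157), where 5.15% of all probe sets did, and the third did not (0.51, adjusted p = 0.349). Without C3H replicate 5 both comparisons of B6C3F1 passed, with 1.02 against C3H (adjusted p = 0.000293) and -0.57 against C57Bl/6 (adjusted p = 0.0276).

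Bst2 encodes tetherin, a membrane protein that holds budding virus on the cell surface. It read 8.08, 8.89, 8.82, 8.37 and 8.70 in C57Bl/6 replicates 1 to 5, and 7.07, 7.99, 8.31, 5.61 and 6.09 in C3H. B6C3F1 read 8.10, 6.71, 8.88, 8.71 and 8.26. C3H replicate 3 was above C57Bl/6 replicate 1, so the strains overlapped, and the C3H arrays spanned the widest range. C3H was lower, with a difference of -1.56 ± 0.44 (SE), or 2.95-fold (limma adjusted p = 0.0196). The call was lost with the poly-A covariate (-1.17, adjusted p = 0.144) and without C3H replicate 4 (-1.21, 0.063) or replicate 5 (-1.33, 0.0524). B6C3F1 minus C3H was 1.12 ± 0.44 (adjusted p = 0.153), and it passed without B6C3F1 replicate 2 (1.48, adjusted p = 0.0469). The SD of Bst2 within a strain was 0.86, larger than in 98.4% of the genes tested.

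The other 4 effectors did not pass. Ifitm3, which blocks the fusion of virus with the endosome, averaged 12.58 ± 0.53 (SD, n = 5) in C57Bl/6, 13.10 ± 0.23 in B6C3F1 and 12.94 ± 0.25 in C3H, so C57Bl/6 was not the highest group here. It passed between B6C3F1 and C57Bl/6 only without C57Bl/6 replicate 2 (0.65, limma adjusted p = 0.042). Eif2ak2, the kinase PKR that stops translation when it meets double-stranded RNA, averaged 6.73, 6.13 and 6.48 in C57Bl/6, B6C3F1 and C3H. A second Eif2ak2 probe set, nearly as bright, had the opposite sign against C57Bl/6 and did not pass. It gave 0.41 for B6C3F1 and 0.64 for C3H (limma adjusted p = 0.557 and 0.258 over all probe sets). Adar, which edits double-stranded RNA, differed between the inbred strains by -0.08 ± 0.17 (SE, limma adjusted p = 0.808).

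Samhd1, which breaks down the nucleotides that retroviruses need, depended on the probe set. The brightest averaged 9.28 in C57Bl/6, 9.09 in B6C3F1 and 9.06 in C3H (C3H minus C57Bl/6 -0.22 ± 0.13, limma adjusted p = 0.306). A second, nearly as bright, gave -0.75 for that comparison and -0.44 for B6C3F1 minus C57Bl/6, and passed in both among all probe sets (adjusted p = 4.75e-05 and 0.0281). The remaining probe sets past the filter gave 0.96 and -1.15 between the inbred strains and did not pass (adjusted p = 0.127 and 0.426). In these tests of every probe set, 13.7% passed between C3H and C57Bl/6 and 3.19% between B6C3F1 and C57Bl/6.

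Usp18, which removes Isg15 from proteins and damps signalling at the interferon receptor, read 7.63, 8.26, 8.42, 8.01 and 8.35 in C57Bl/6, and 7.65, 7.73, 7.53, 7.56 and 7.84 in B6C3F1. C57Bl/6 replicate 1 lay among the B6C3F1 arrays and the other 4 above them all. The B6C3F1 minus C57Bl/6 difference of -0.47 ± 0.17 (SE) did not pass (limma adjusted p = 0.119), and the C3H mean was 7.87 ± 0.24 (SD, n = 5).

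The chemokine Cxcl9 had the largest difference of the 27 members. It is induced by interferon gamma and attracts activated T cells. It read 7.46, 8.28, 6.89, 7.38 and 8.25 in C57Bl/6 replicates 1 to 5, 7.24, 6.78, 7.26, 7.53 and 7.42 in B6C3F1, and 4.35, 5.72, 4.44, 4.31 and 5.76 in C3H. All C3H arrays lay below all others, and 4 of the 5 were below the dim filter level of 5.74, so the size of the difference rests on dim signals. C3H was lower than C57Bl/6, with a difference of -2.74 ± 0.34 (SE), or 6.66-fold (limma adjusted p = 8.81e-06). The size depended on the pseudocount: it was -3.94 with 1 and -1.65 with 64 in place of 16 (adjusted p = 9.46e-06 for the latter).

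B6C3F1 was above C3H for Cxcl9 by 2.33 ± 0.34 (SE), or 5.03-fold (limma adjusted p = 0.000223), and by 3.50 or 1.32 with a pseudocount of 1 or 64. B6C3F1 minus C57Bl/6 was -0.41 ± 0.34 and did not pass (adjusted p = 0.54). The second Cxcl9 probe set gave -0.86 between the inbred strains and did not pass (adjusted p = 0.0967). Cxcl10, a chemokine with the same receptor, was dim, with strain means from 5.02 to 5.46. Of the 6 T cell markers with a probe set, 5 were below the filter (Cd3d, Cd3e, Cd3g, Cd4 and Cd2), as were 4 of 5 NK cell markers. The summed T cell marker level was log2 5.86 to 7.50 in C57Bl/6, 6.99 to 7.82 in B6C3F1 and 6.31 to 7.90 in C3H.

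Trim30a and Trim30d belong to a family of interferon-induced TRIM proteins, and Trim30a is known to damp inflammatory signalling. Trim30a read 8.54, 8.29, 9.21, 8.70 and 9.14 in C57Bl/6 replicates 1 to 5, 8.20, 8.61, 8.55, 8.12 and 8.74 in B6C3F1, and 7.29, 7.95, 7.22, 7.65 and 7.24 in C3H. Each C3H array lay below each array of the other groups. C3H was lower than C57Bl/6, with a difference of -1.30 ± 0.20 (SE), or 2.47-fold (limma adjusted p = 7.51e-05), and B6C3F1 was above C3H by 0.97 ± 0.20 (adjusted p = 0.00393).

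Trim30d read 6.57, 6.35, 7.03, 6.28 and 7.27 in C57Bl/6, 5.95, 6.78, 6.12, 4.49 and 6.52 in B6C3F1, and 5.19, 5.74, 4.21, 4.65 and 4.20 in C3H. The inbred strains did not overlap, B6C3F1 replicate 4 lay in the C3H range, and the C3H mean of 4.80 was below the dim filter level. C3H was lower, with a difference of -1.90 ± 0.43 (SE), or 3.73-fold (limma adjusted p = 0.00401). With a pseudocount of 64 it was -0.99 (adjusted p = 0.00308). B6C3F1 minus C3H was 1.17 ± 0.43 and did not pass (adjusted p = 0.121), but was 1.54 (adjusted p = 0.0243) without B6C3F1 replicate 4.

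The probe sets of these near copies were uneven. A second Trim30a probe set gave -0.26 between the inbred strains (limma adjusted p = 0.381 over all probe sets). A probe set annotated to both genes gave -0.71, and a second Trim30d probe set, below the dim filter, gave -0.54; neither was tested. The sign was the same in all 5, and the size was not.

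The gene order of GRCm38.p6 places Trim30a and Trim30d in a run of 10 genes from Trim34a to Trim30d, a stretch chosen after the values had been seen. Of these, 6 were tested, and 5 of the 6 were lower in C3H than in C57Bl/6, against 8.4% of all genes tested. The 5 include the members Trim30a and Trim30d, and the stretch begins and ends at genes that passed. The count therefore describes the stretch and is no test of it. Trim34a averaged 8.53 ± 0.39 (SD, n = 5) in C57Bl/6 and 5.45 ± 0.88 in C3H, a difference of -3.08 ± 0.32 (SE, limma adjusted p = 6.24e-07). Trim12a differed by -2.75 ± 0.29 (adjusted p = 8.82e-07) and Trim5 by -1.50 ± 0.48 (adjusted p = 0.0383). The C3H means of Trim34a, Trim12a (5.19) and Trim5 (5.00) lay below the dim filter level of 5.74, so the size of these differences rests on dim signals. Trim12c, which lies between Trim12a and Trim30a in the order, read 7.81 to 8.28 in C57Bl/6 and 7.46 to 8.55 in C3H and did not pass (0.18 ± 0.20, adjusted p = 0.591). In B6C3F1, 3 of the 6 were above C3H (Trim34a, Trim12a and Trim30a), against 3.59% of all genes tested. Against C57Bl/6, 0 of the 6 passed (3.83% of all genes).

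**Figure D2:**
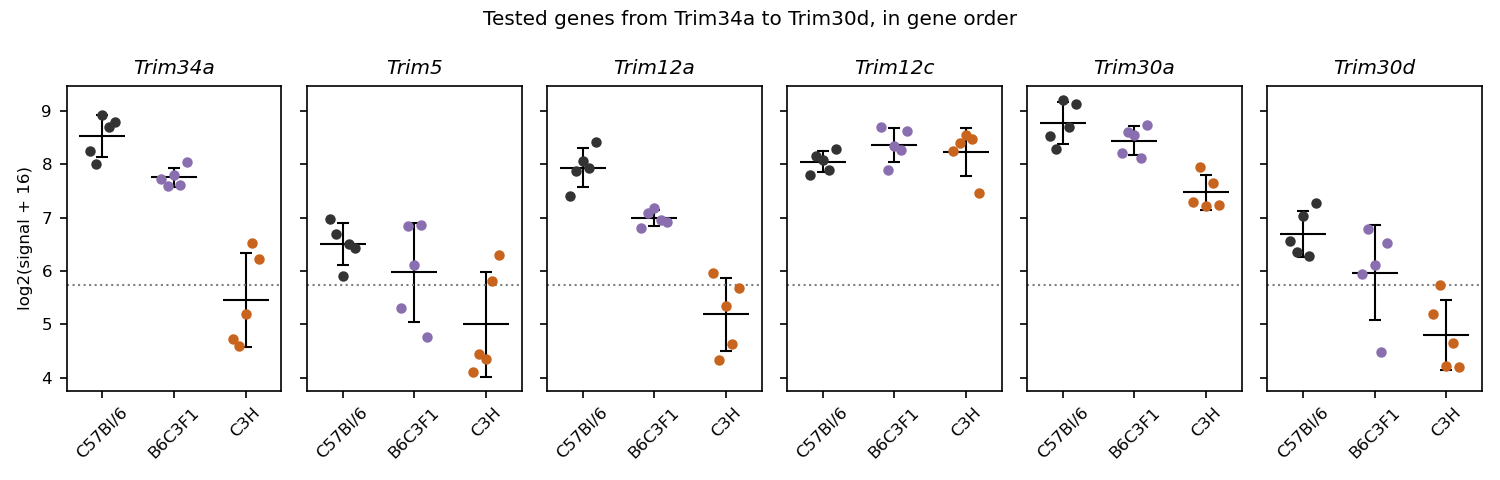
Levels (log2(signal + 16), vertical axis) of the 6 tested genes of the run from Trim34a to Trim30d, in gene order, with 1 point per mouse, the strain mean as a line and the SD as bars (n = 5). The dotted line marks the dim filter at 5.74. C3H is lower than C57Bl/6 in 5 panels, and Trim12c shows overlapping strains.

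Ifi35, a partner of the interferon-induced protein Nmi, was the 1 member higher in C3H. It read 10.75, 11.32, 11.44, 11.05 and 11.29 in C57Bl/6 replicates 1 to 5, 11.34, 11.32, 11.46, 11.66 and 11.34 in B6C3F1, and 11.53, 11.92, 11.56, 11.92 and 11.78 in C3H. The inbred strains did not overlap. C3H was higher by 0.57 ± 0.12 (SE), or 1.49-fold (limma adjusted p = 0.00264). That probe set is of a kind that can match several transcripts, and the other Ifi35 probe sets gave 0.22 (adjusted p = 0.356) and 0.13 (adjusted p = 0.723), so the call was lost once such sets were left out.

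Parp14, an ADP-ribosyltransferase, averaged 9.45 ± 0.20 (SD, n = 5) in C57Bl/6, 9.04 ± 0.22 in B6C3F1 and 9.08 ± 0.31 in C3H. Its difference between the inbred strains of -0.37 ± 0.15 (SE) did not pass (limma adjusted p = 0.101), but was -0.48 (adjusted p = 0.0231) without C3H replicate 1. Rtp4, an interferon-induced regulator of the antiviral response, averaged 9.86 ± 0.80 (SD, n = 5), 10.16 ± 0.45 and 9.69 ± 0.47 in the same order, with a difference between the inbred strains of -0.17 ± 0.31 (SE, adjusted p = 0.768).

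Across all members, the arrays of C3H and C57Bl/6 did not overlap for Cxcl9, Trim30a and Trim30d, which were lower in C3H (6.17% of all genes tested were separated in that direction), and for Ifi35, which was higher (5.0% of all genes). C3H had the lowest mean of the 3 groups in 17 of 27 members (38.9% of all genes tested) and C57Bl/6 the highest in 19 (36.9%). The B6C3F1 mean lay between the parental means in 15, and the share of all genes is not given here.

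Between B6C3F1 and C57Bl/6, 0 of 27 members passed. The differences ran from -0.73 for Trim30d to 0.51 for Ifitm3, with a median of -0.22 over the members and 0.01 over all genes. Of the 27, 19 were below 0 (70.4%), against 48.8% of all genes tested. Against the midparent (the mean of both parental means) 0 of 27 passed, where 0.633% of all genes tested did. The unadjusted limma p was under 0.05 for 3 members, and the share of all genes at that looser threshold is not given here. Cxcl9 lay 0.96 ± 0.30 (SE) above the midparent (limma adjusted p = 0.153) and Oas2 lay -0.51 ± 0.17 from it (adjusted p = 0.178). The comparisons share groups, so their values are set side by side and not correlated.

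**Figure D3:**
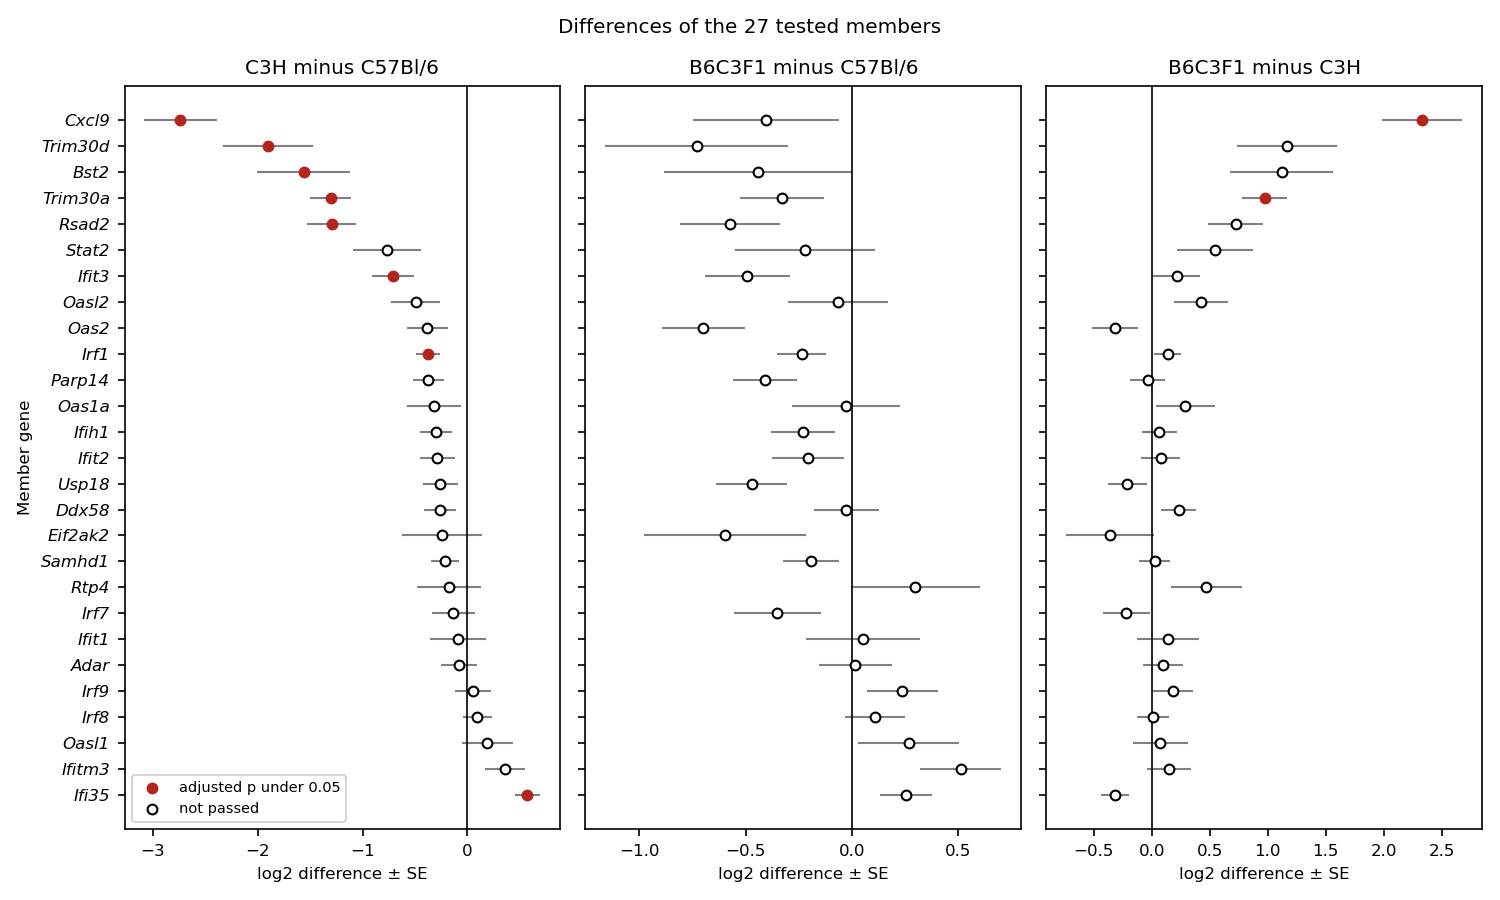
Difference between strain means (log2 scale, horizontal axis, different range in each panel) with its SE for the 27 tested members in 3 comparisons, ordered by C3H minus C57Bl/6. Filled points passed at an adjusted p under 0.05: 8 in C3H minus C57Bl/6, 0 in B6C3F1 minus C57Bl/6 and 2 in B6C3F1 minus C3H.

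Among mice of the same strain, the median SD was 0.34 over the 27 members and 0.26 over all genes tested, with no test made. C57Bl/6 replicate 1 was the lowest of its strain for 15 of 27 members, where it was lowest for 21.4% of all genes, and was the highest for 0. Its median member deviation from the strain mean was -0.36, against 0.01 over all genes. Its poly-A signal (9.02), Gapdh ratio (0.95) and summed endothelial marker level (log2 13.79) lay within the range of the other C57Bl/6 arrays. Its summed macrophage (13.71), fibroblast (14.80) and plasmacytoid dendritic cell (11.39) marker levels were the lowest of the 5. Its summed cardiomyocyte (18.84) and T cell (7.50) marker levels were the highest of the 5. The part of these levels in the result was not tested.

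In C57Bl/6 replicate 1 the low members included Ifit1 at 7.41, Oas1a at 7.60, Rtp4 at 8.86, Oasl2 at 7.74, Irf9 at 7.55 and Ifitm3 at 11.71, named after their values had been seen. Oas1a, for example, read 8.72 to 9.46 in the other C57Bl/6 mice. Among C3H mice, replicate 5 was the highest for 13 of 27 members (25.2% of all genes) and replicate 1 the lowest for 11 (25.1%). Without C57Bl/6 replicate 1 the member median of C3H minus C57Bl/6 was -0.40, the largest shift in the 29 settings run. It was -0.23 without C57Bl/6 replicate 3 and -0.24 without replicate 5. With the poly-A signal as a covariate it was -0.20, or -0.18 relative to all genes, with 19 members below 0.

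**Figure D4:**
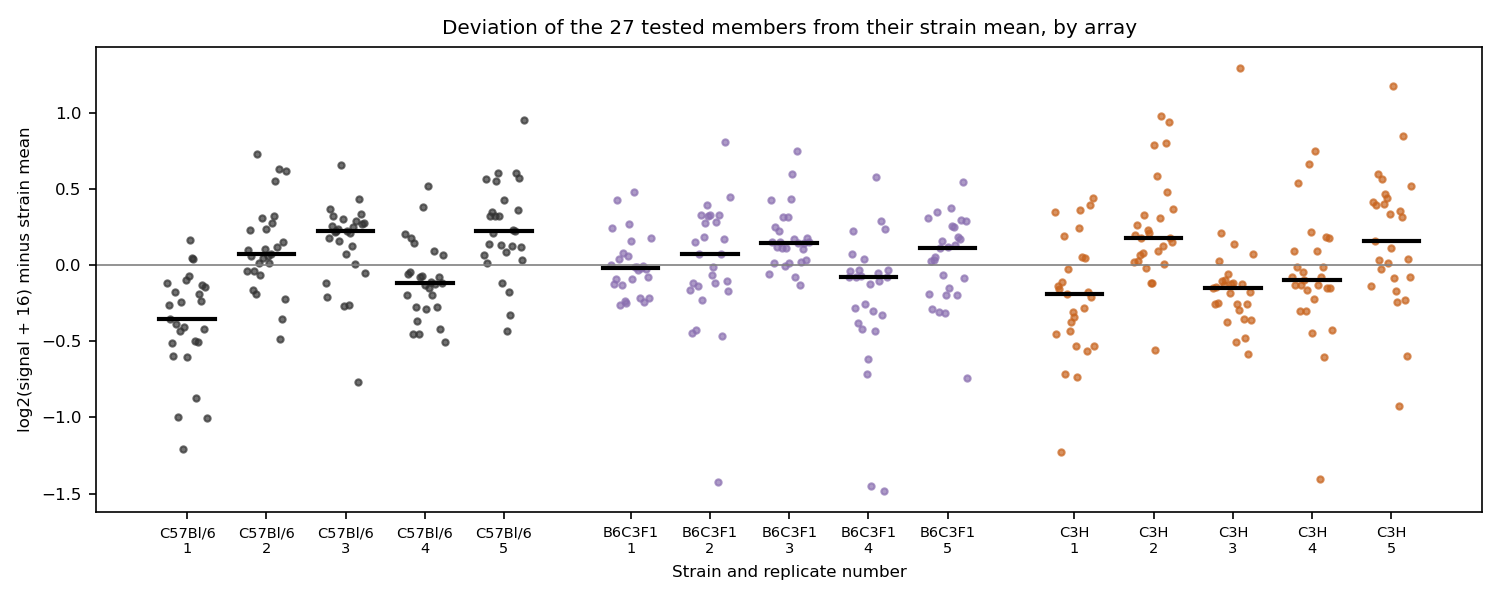
Deviation of each of the 27 tested members from its strain mean (log2(signal + 16), vertical axis) on each of the 15 arrays, with the median as a bar. The C57Bl/6 replicate 1 bar is the lowest at -0.36, and the C57Bl/6 replicate 3 and 5 bars are the highest, both at 0.22.

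Levels of other cell types were read beside the strain differences. Of 8 endothelial markers, 3 were lower in C3H than in C57Bl/6 (Cdh5 -0.56, Cldn5 -0.66 and Esam -0.45) and 0 were higher. Among all genes tested, 8.4% were lower and 7.26% higher in this comparison. The median difference was -0.49 over the 8 endothelial markers, -0.29 over the 27 members and -0.02 over all genes. The summed endothelial level was log2 13.18 to 13.76 in C3H, 13.71 to 13.98 in C57Bl/6 and 13.38 to 14.003 in B6C3F1. Of 10 macrophage markers, Cd68 was higher in C3H (0.77) and Adgre1 lower (-0.62), with summed levels of 13.64 to 14.37 in C3H and 13.71 to 14.34 in C57Bl/6. Of 6 fibroblast markers, Dcn and Tcf21 were higher in C3H, with summed levels of 15.01 to 15.53 against 14.80 to 15.18. Of 3 B cell markers with a probe set 1 was below the filter, as were 2 of 4 markers of plasmacytoid dendritic cells, the main source of type I interferon, and 0 in these lists passed between the inbred strains. The summed B cell level was log2 7.35 to 7.999 in C57Bl/6, 6.61 to 7.66 in B6C3F1 and 6.38 to 7.18 in C3H, so that the inbred strains did not overlap. The summed NK cell level was 7.23 to 7.85, 6.68 to 7.48 and 6.57 to 7.50 in the same order. That of plasmacytoid dendritic cells, a list that includes the member Irf8, was 11.39 to 11.79, 11.85 to 12.04 and 11.40 to 11.65. Tcf4, with means of 11.47, 11.81 and 11.36, made up most of this last sum. It was higher in B6C3F1 than in C3H (0.45 ± 0.10, SE, limma adjusted p = 0.00786). Below the filter, Siglech averaged 5.11, 4.77 and 4.49, and Ccr9 5.23, 5.39 and 5.48. The part of these cell types in the members' differences was not tested.

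Of 34 genes of interferon sensing and signalling, 27 were tested, and between C3H and C57Bl/6 3 were higher and 2 lower (against 7.26% and 8.4% of all genes tested), with a list median of 0.04. These shares are near those of all genes. The adaptor Mavs was higher in C3H by 0.64 ± 0.14 (SE, limma adjusted p = 0.00368) and Stat3 by 0.58 ± 0.09 (adjusted p = 0.000143). The phosphatase Ptpn2, which damps Jak and Stat signalling, was higher by 0.55 ± 0.13 (adjusted p = 0.00644). Myd88, the adaptor of most Toll-like receptors, was lower, at -0.61 ± 0.15 (adjusted p = 0.00606). The interferon gamma receptor gene Ifngr1, named after its values had been seen, was lower, at -0.53 ± 0.15 (adjusted p = 0.0177). The other gene of that receptor, Ifngr2, had the opposite sign and did not pass (0.41 ± 0.24, limma adjusted p = 0.275). The type I receptor genes did not pass (Ifnar1 0.16 ± 0.13, Ifnar2 -0.03 ± 0.15), and Ifna2, Ifna4 and Ifng themselves were below the dim filter. Ifnb1, which encodes interferon beta, was above it, with means of 5.96 ± 0.89 (SD, n = 5) in C57Bl/6, 6.12 ± 0.49 in B6C3F1 and 5.39 ± 0.91 in C3H, and did not pass between the inbred strains (-0.57 ± 0.47, SE, limma adjusted p = 0.469). B6C3F1 differed from C57Bl/6 in Ptpn2 (0.52) and from C3H in Stat3 (-0.33).

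A list of 48 further interferon-stimulated genes outside the member list was also chosen with earlier results of these data known. Of these, 41 were tested, and 8 were lower and 1 higher in C3H than in C57Bl/6 (against 8.4% and 7.26% of all genes tested). The median difference was -0.20. Trim34a and Trim12a of the run above are among the 8. After Trim34a and Trim12a, the largest were Ly6e, a membrane protein that blocks the entry of coronaviruses (-1.27 ± 0.21, SE, limma adjusted p = 0.000187), and Parp9, a partner of Dtx3l (-0.80 ± 0.15, adjusted p = 0.000562). In B6C3F1, 3 of the 41 were above C3H (Trim34a, Trim12a and Ly6e, the last by 1.21 ± 0.21 with adjusted p = 0.00105), against 3.59% of all genes tested, and 0 of the 41 passed against C57Bl/6 (3.83% of all genes).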

How the data were processed

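Heart apex RNA of 15 mice was measured on 1 Affymetrix array each. The deposited values are log2 signals that the authors made with MAS5, per the submitters' processing notes, with a version not given in the sources used here. The log2 scale and the scaling are stated by no header and were read from the values (linear 2% trimmed mean 500.26 to 500.28 on each array). The number of arrays limits the precision, since array signals carry no depth, and no detection call was used. Of 45096 probe sets, 34940 had 1 gene symbol. The linear signal was recovered, log2(signal + 16) was taken, and genes whose probe set mean was below the 40th percentile were left out. Strains were compared with limma 3.58.1 in R 4.3.3 (lmFit, eBayes with trend) and Benjamini-Hochberg adjustment over 13107 genes.

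On simulated data for C3H minus C57Bl/6 with 200 of 13107 genes changed, the procedure found 49.3% of the 1.5-fold changes and 82.1% of the 2-fold changes. For B6C3F1 minus C57Bl/6 it found 38.8% and 70.1%. In the real data 2052 and 502 genes passed in these comparisons. The adjustment depends on that number, so the simulated shares need not carry over. Members that passed are given on every array and the others by means or differences. Of the pathway lists, up to 4 genes per comparison are named by size, plus the interferons and the type I and gamma receptors. The members and lists were chosen with earlier results of these data known. Alternatives changed the pseudocount, filter, scaling, probe sets, eBayes trend, strains fitted, replicate block, covariates and arrays included.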

Additional observations from a re-analysis of the deposited data

Results flagged for a closer look

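One value stood apart from its own group. Rsad2 in B6C3F1 replicate 3 was 11.07, and the nearest of the other B6C3F1 arrays was 10.57, a gap of 0.859 of the strain's whole range (Dixon's critical value for 5 samples is 0.71). It was the 1 such value in 81 groups of 5 arrays (27 members in 3 strains), and chance gives about 1 in 20. The other 4 B6C3F1 arrays lay between 10.49 and 10.57, and that array lay within the C57Bl/6 range of 10.92 to 11.43.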

How the results depend on the processing

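Of the 10 single-gene calls, 6 kept direction and threshold under every alternative in which the gene was tested, and 0 reversed (258 of 276 alternative values passed in the same direction). Runs without an array of a strain outside the comparison could change the spread but not the difference. No alternative exchanged the probe set of Cxcl9 or Trim30a. Their second probe sets did not pass between the inbred strains (-0.86 and -0.26, limma adjusted p = 0.0967 and 0.381 over all probe sets). The other Rsad2 probe sets passed there, and that of Trim30d was not tested. Cxcl9 and Trim30d were not tested with the filter at the 60th percentile, nor Trim30d with a pseudocount of 1. The 8 calls of C3H minus C57Bl/6 became 5 with the poly-A covariate, and 5 to 9 without 1 array (5 without C3H replicate 4, which lost Bst2, Ifit3 and Irf1). The count for B6C3F1 minus C57Bl/6 rose from 0 to 1 (Oas2) with a pseudocount of 64, the 60th percentile filter, quantile normalization, the poly-A or the Gapdh covariate, to 2 with only those strains fitted (Oas2 and Rsad2), and was 0 to 1 without 1 array. For B6C3F1 minus C3H the 2 calls became 1 with the 60th percentile filter and were 2 to 3 without 1 array. For the midparent the count was 0 in all alternatives. The cause of these changes was not tested. The median SE of a C3H minus C57Bl/6 difference was 0.163, and sequence differences between strains under the probes were not tested.

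Replicate numbers only follow the order of the sample numbers, and the labels give no pairing of mice. The values below therefore test no known pairing. Deviations of same-numbered arrays correlated at -0.06 to 0.13 over 15 pairs, and 0 arrays correlated best with their own number. With the replicate number as a block, the calls were 8 for C3H minus C57Bl/6, 0 for B6C3F1 minus C57Bl/6, 3 for B6C3F1 minus C3H (Rsad2 added, adjusted p = 0.0445) and 0 for the midparent.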
